A study of Caenorhabditis elegans with 5 samples.

Results

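The mRNA levels of 6 *C. elegans* genes that encode histone methyltransferases or their partners were examined. They are *mes-2*, *mes-3* and *mes-6*, which encode the Polycomb-type H3K27 methyltransferase complex, *mes-4* and *met-1*, which encode H3K36 methyltransferases, and *set-2*, which encodes an H3K4 methyltransferase. The genes were listed by sequence name (R06A4.7, F54C1.3, C09G4.5, Y2H9A.1, C43E11.3 and C26E6.9), with no rule on their expression. They were chosen with earlier results of these data known. Each matched 1 gene model, so that 6 of the 20911 models in the table (20167 distinct sequence names) are described.

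Poly(A) mRNA was sequenced from whole, synchronized young adult animals grown at 19 °C on *E. coli* OP50. The 5 libraries, 1 per genotype, came from the *set-32(ok1457)* mutant, the *met-2(n4256);set-25(ok5021)* double mutant (*met-2 set-25*), the triple mutant that carries all 3 of these alleles (*met-2 set-25;set-32*), the *hrde-1* mutant (allele tm1200, written tm-1200 in 1 label) and wild type (N2). The first 3 strains lack 1 or more of the H3K9 methyltransferases SET-32, MET-2 and SET-25, whose role in germline nuclear RNAi was the question of the study, and HRDE-1 is the nuclear Argonaute protein of that pathway. None of the 4 mutants carries a labelled allele of any of the 6 genes.

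The MES proteins take their name from the maternal-effect sterile phenotype: the offspring of homozygous mutant mothers lack a functional germline. MES-2 is the worm ortholog of Enhancer of zeste and places methyl groups on H3K27, MES-6 is the ortholog of the WD-repeat subunit ESC/EED, and MES-3 is a nematode subunit of the same complex, which keeps the X chromosomes repressed in germ cells. MES-4 and MET-1 both methylate H3K36: MES-4 maintains the mark on genes expressed in the parental germline, and MET-1 is the ortholog of Set2, which acts with elongating RNA polymerase II. SET-2 is the SET1/MLL-type enzyme of the COMPASS complex, a main source of H3K4 methylation in the worm.

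Levels are in RPKM, the unit of the deposited table, which divides the reads of a gene model by its length and by the depth of the library. Depth was estimated from the steps between low values of the table. On a model of 1 kilobase, 1 RPKM stood for 2.23 reads in *set-32*, 2.08 in *met-2 set-25*, 2.92 in the triple mutant, 1.82 in *hrde-1* and 2.44 in wild type. At these depths the 6 genes had between 112 and 378 reads in a library. With 1 library per genotype there is no replicate, so no test was made and no p-value is given. Intervals are 95% exact (Clopper-Pearson) intervals from the estimated read numbers. They cover counting error only, not differences between animals or preparations, and reads are not independent molecules. In whole animals, fewer cells of a type and less RNA per cell cannot be told apart.

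The mutated genes had their lowest levels where their alleles are labelled, not all of them beyond counting error. *met-2* was at 12.6 RPKM in *met-2 set-25* and 9.45 in the triple mutant, against 47.3 in wild type. The *set-32* gene had 8.15 RPKM in the single mutant and 5.65 in the triple mutant, against 12.5 in wild type, and in the single mutant the interval of the ratio held 1 (0.651, 0.393 to 1.06). The *hrde-1* gene had 160 RPKM in its mutant and 228 in wild type, but the *set-32* library, with no *hrde-1* allele, was at 178. Germline markers were present in all 5 libraries, with a summed level of 1681 to 2085 RPKM over 6 genes, as were intestine (4 of 4 markers), muscle (3 of 3), neuron (3 of 3) and hypodermis markers (2 of 3 matched, at a summed 7.11 to 20.01 RPKM).

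All 6 genes were expressed at a moderate and similar level, between 22.7 and 45.2 RPKM over the 30 values. Their means over the 5 libraries ranked from 3758th (*mes-6*) to 5263rd (*set-2*) among all models, so that 74.8% to 82.0% of models had a lower mean. Even at its lowest, in *set-32*, *mes-4* lay above 73.4% of models.

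The subunits of the H3K27 methyltransferase complex come first. *mes-2* (chromosome II, 14383973 to 14388454, plus strand, 8 exons; positions are those of the WBcel235 annotation throughout) was at 33.3 RPKM in *set-32*, 41.7 in *met-2 set-25*, 32.7 in the triple mutant, 38.8 in *hrde-1* and 32.1 in wild type. The double mutant and *hrde-1* libraries held the higher values and the other 3 libraries lay close to each other. *mes-3* (chromosome I, 4996835 to 5003202, plus strand, 15 exons), whose product is found in the complex of nematodes, was at 27.7 RPKM in *set-32*, 35.7 in *met-2 set-25*, 26.4 in the triple mutant, 36.8 in *hrde-1* and 26.3 in wild type. It showed the same division, with *met-2 set-25* and *hrde-1* above the rest.

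*mes-6* (chromosome IV, 8511284 to 8513469, plus strand, 7 exons) was at 36.5 RPKM in *set-32*, 42.8 in *met-2 set-25*, 38.5 in the triple mutant, 45.2 in *hrde-1* and 40.9 in wild type. It was the most even of the 6 genes, with a highest-to-lowest ratio of 1.24. All of its intervals overlapped, as did those of *mes-2* and of *set-2*, and *mes-6* had the fewest reads of the 6 genes in each library. Its value has a limit of its own: 380 exon bases are shared with the gene C09G4.4 on the same strand, although no coding bases are. C09G4.4 was at 31.6 RPKM in *hrde-1* and 11.4 in wild type, but these are only 13 and 6 estimated reads, and the ratio of 2.78 had an interval of 1.02 to 8.53. How the shared bases were counted is not given in the sources used here. The other 11 annotated neighbours within 1000 bases of a member shared no exon base with it.

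The H3K36 methyltransferase genes varied more. *mes-4* (chromosome V, 13433050 to 13437545, minus strand, 10 exons) was at 22.7 RPKM in *set-32*, 34.7 in *met-2 set-25*, 28.5 in the triple mutant, 37.2 in *hrde-1* and 34.7 in wild type. Both libraries that lack *set-32* were the lowest, and the highest-to-lowest ratio of 1.64 was the widest among the 6 genes. *met-1* (chromosome I, 4254197 to 4264699, plus strand, 14 exons) was at 23.4 RPKM in *set-32*, 37.8 in *met-2 set-25*, 24.1 in the triple mutant, 37.7 in *hrde-1* and 30.1 in wild type. The 5 libraries of *met-1* thus fell into a low pair, a high pair and wild type between them.

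The H3K4 methyltransferase gene *set-2* (chromosome III, 4922427 to 4930204, minus strand, 16 exons) was at 23.0 RPKM in *set-32*, 28.8 in *met-2 set-25*, 23.5 in the triple mutant, 28.0 in *hrde-1* and 26.7 in wild type. Its highest-to-lowest ratio was 1.25, and its order of libraries was that of *met-1*. The table places *mes-4* in the oocyte class and *set-2* in the intrinsic (germline-intrinsic) class of germline expression and gives the other 4 genes no class. None of the 6 is on the 2 lists of germline nuclear RNAi targets in the table.

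**Figure D1:**
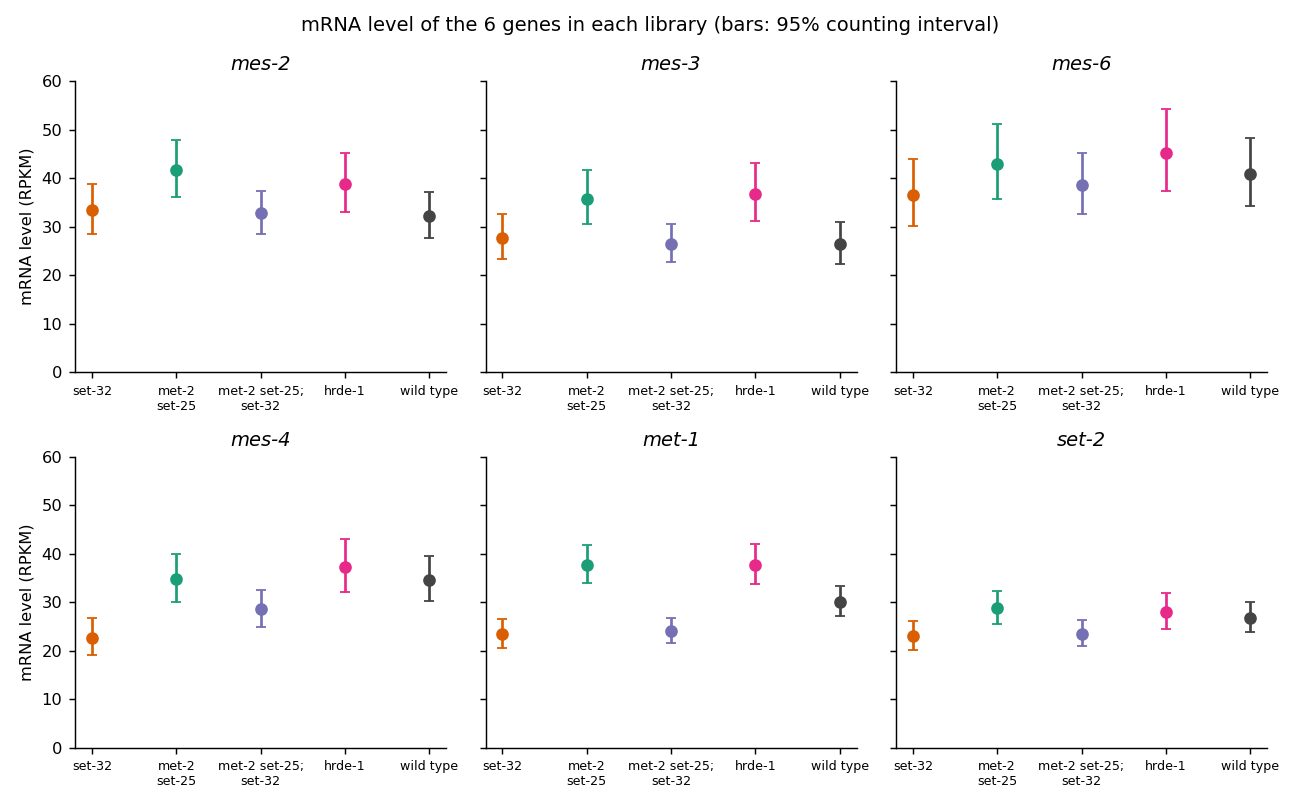
mRNA level in RPKM (vertical axis, from 0) of the 6 genes in each of the 5 libraries, with mutants at the left and wild type at the right; points are single libraries and bars are 95% counting intervals. In every panel the *set-32* and triple mutant points lie below the *met-2 set-25* and *hrde-1* points, and in *mes-4* and *met-1* the highest level is 1.64 and 1.62 times the lowest.

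Within a library the order of the 6 genes was poorly resolved. *mes-6* was the highest in all 5 libraries. The lowest was *mes-4* in *set-32*, *set-2* in the double mutant, the triple mutant and *hrde-1*, and *mes-3* in wild type. Of the 25 pairs of neighbours in these orders, 1 differed beyond its counting interval, *mes-3* over *set-2* in *hrde-1* (ratio 1.31, interval 1.06 to 1.62). The highest and lowest gene differed beyond the interval in every library, for example 1.55 in wild type (*mes-6* over *mes-3*, 1.22 to 1.97).

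In the median, these genes did not vary more across the 5 libraries than others of their level. The median range of log2(RPKM + 1) was 0.42 for the 6 genes and 0.54 for the 1506 models with a mean in the same span of RPKM. Of those models, 72.6% had a smaller range than *mes-4*, 70.4% a smaller range than *met-1*, and 14.1% a smaller range than *mes-6*. The models were matched on RPKM only, not on length or reads, so counting error may add unlike amounts to these ranges. The summed level of the 6 genes was 167 RPKM in *set-32*, 222 in *met-2 set-25*, 174 in the triple mutant, 224 in *hrde-1* and 191 in wild type. The ratio of *met-1* to *mes-4*, the other H3K36 enzyme, stayed between 0.845 and 1.09.

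None of the 24 ratios to wild type reached 2-fold. The log2 ratio is log2((RPKM + 1)/(RPKM + 1)), and a model was past the rule if the libraries differed 2-fold or more by this measure and it reached 5 RPKM in the higher library. Ratios given with an interval are plain RPKM ratios. The share of all tested models past the rule, in either direction, was 6.33% in *set-32*, 4.91% in *met-2 set-25*, 5.46% in *met-2 set-25;set-32* and 6.23% in *hrde-1*. A count of 0 among 6 is close to what these shares give. Smaller differences were therefore read from the counting intervals, which excluded 1 for 9 of the 24 ratios, 5 higher and 4 lower in the mutant. The 4 comparisons share the wild-type library, so a chance deviation of that library would enter all of them.

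In *set-32*, *mes-4* and *met-1* were lower than in wild type beyond the counting interval, and the other genes were not. The ratio of *set-32* to wild type was 0.655 for *mes-4* (interval 0.526 to 0.813) and 0.776 for *met-1* (0.657 to 0.915). For *set-2*, *mes-6*, *mes-2* and *mes-3* the ratios were 0.862, 0.892, 1.04 and 1.05, with intervals that held 1. The 2 of 6 genes lower beyond the interval are to be read against 29.3% of the 3753 models with at least 100 reads in both libraries, and 12.8% of those were higher. A count of 2 among 6 is close to what the share of 29.3% gives.

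The ratio of *mes-4* was also past 1.5-fold (log2 ratio -0.59), which 7.37% of tested models were in this direction. Among the 689 oocyte-class models measured, the class in which the table places *mes-4*, 75 had a lower ratio than *mes-4*, and the class median was -0.28. *set-2* sat in the middle of its own class, with 407 of 782 intrinsic models lower and a class median of -0.22. The median log2 ratio of the 6 genes was -0.18, against -0.04 over all tested models. When libraries were rescaled to a median ratio of 1 over the intrinsic class, the median became 0.036, *mes-6* and *set-2* changed sign, and *mes-4* (log2 ratio -0.37) was the only gene still beyond its interval. How many of all models were still beyond the interval was not counted.

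The tissue markers moved in the same library. The summed level of 30 major sperm protein genes was 2903 RPKM in *set-32* and 1234 in wild type. The summed intestine markers were at 3981 RPKM in *set-32* and 2920 in wild type, a sum carried by the yolk genes *vit-2* and *vit-6*. Of the 4 intestine markers 3 were higher, and *elt-2* was at 8.80 RPKM in *set-32* and 11.5 in wild type. The germline markers were at 1681 in *set-32* and 1857 in wild type, and 5 of the 6 germline markers had a lower level in *set-32*. The other 2 sperm markers, *spe-9* and *fer-1*, summed to at most 1.56 RPKM in any library, with *spe-9* listed at 0 in *set-32* and *hrde-1*. The part of these differences in the levels of *mes-4* and *met-1* was not tested.

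In the *met-2 set-25* double mutant all 6 ratios were above 1 (*mes-4* not after rescaling to all measured models), and 3 exceeded the counting interval. The ratio of the double mutant to wild type was 1.299 for *mes-2* (interval 1.06 to 1.597), 1.36 for *mes-3* (1.08 to 1.71) and 1.25 for *met-1* (1.08 to 1.45). *mes-4* was at the same level in both libraries (1.00, interval 0.822 to 1.22), and *mes-6* and *set-2* were at 1.05 and 1.08. Of the 3826 models with at least 100 reads in both libraries, 12% were higher beyond the interval and 11.3% lower. The median log2 ratio of the 6 genes was 0.21 and that of all tested models 0.05. Rescaling to the intrinsic class, whose median was -0.01, left all 6 ratios positive, while rescaling to all measured models moved *mes-4* to -0.06. In the same library the summed intestine markers were at 2592 RPKM, against 2920 in wild type, with 3 of 4 lower, and *vit-2* and *vit-6* lower beyond the interval. The muscle markers summed to 579 RPKM in *met-2 set-25* and 605 in wild type, with 3 of 3 lower within the interval, and the 30 major sperm protein genes to 1645 RPKM in *met-2 set-25* and 1234 in wild type. The part of these markers in the result was not tested.

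In *hrde-1* all 6 ratios were above 1, by small amounts. The ratio of *hrde-1* to wild type was 1.40 for *mes-3* (interval 1.104 to 1.76), 1.25 for *met-1* (1.07 to 1.46) and 1.21 for *mes-2* (0.972 to 1.501). For *mes-6*, *mes-4* and *set-2* it was 1.11, 1.07 and 1.05, with 1 inside each interval. Thus 2 of the 6 were higher beyond the interval, against 16.8% of the 3484 models with at least 100 reads in both libraries, of which 13% were lower. The median log2 ratio was 0.20 for the 6 genes and 0.01 for all tested models, and all 6 ratios stayed positive under both rescalings. Germline markers summed to 2085 RPKM in *hrde-1* and 1857 in wild type, with 3 of the 6 markers higher and 3 lower. The muscle markers summed to 528 RPKM in *hrde-1* and 605 in wild type, and 3 of 3 were lower beyond the interval. The sperm class had a median log2 ratio of -0.41, and 35 of its 181 tested models were past 2-fold lower. The part of these in the result was not tested.

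The triple mutant resembled *set-32* more than the double mutant in these genes. Their median log2 ratio was 0.04 for the triple mutant over *set-32* and -0.31 over the double mutant. The germline classes went the same way, with medians of 0.03 and -0.15 in the intrinsic class and 0.05 and -0.21 in the oocyte class. The ratio of the triple mutant to wild type was 0.801 for *met-1* (interval 0.688 to 0.932) and 0.823 for *mes-4* (0.681 to 0.994). For *set-2*, *mes-6*, *mes-2* and *mes-3* it was 0.881, 0.942, 1.02 and 1.00, with intervals that held 1. Of the 689 oocyte-class models measured, 284 had a lower ratio than *mes-4* (log2 ratio -0.27), and the class median was -0.22. The 2 genes lower beyond the interval are read against 26.6% of the 4185 models with at least 100 reads in both libraries that were lower, and 12.7% that were higher. A count of 2 among 6 is close to what the share of 26.6% gives. The median log2 ratio of the 6 genes was -0.13, against -0.03 over all tested models, and it became 0.056 after rescaling to the intrinsic class, whose own median was -0.19. After that rescaling *mes-6* and *set-2* changed sign and no member was beyond its interval, a count for which no share of all models was taken. The summed intestine markers were at 3574 RPKM in the triple mutant and 2920 in wild type, with 3 of 4 higher and *elt-2* at a ratio of 0.797. The muscle markers summed to 730 RPKM in the triple mutant and 605 in wild type, with *unc-54* and *unc-15* higher and *myo-3* lower (0.857, 0.752 to 0.976), each beyond the interval. Their part in the result was not tested.

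**Figure D2:**
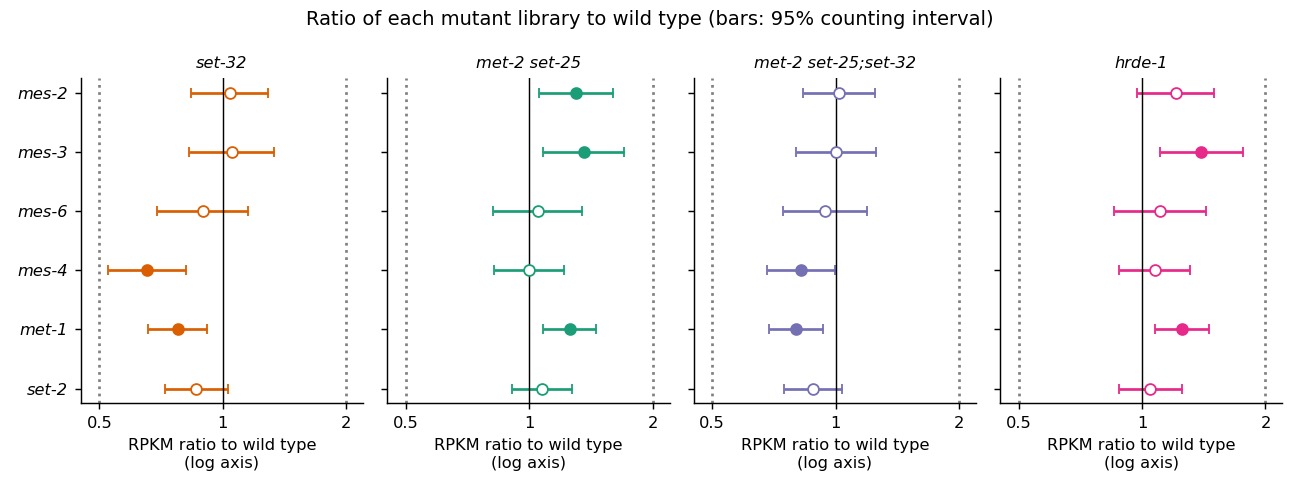
RPKM ratio of each mutant library to wild type on a log axis for the 6 genes, 1 panel per mutant; bars are 95% counting intervals, filled points are intervals that exclude 1, and dotted lines mark 2-fold. No point reaches 2-fold, and filled points lie below 1 for *mes-4* and *met-1* in *set-32* and the triple mutant and above 1 for *mes-3* and *met-1* in *met-2 set-25* and *hrde-1*, together with *mes-2* in *met-2 set-25*.

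The loss of *set-32* could also be followed in the absence of *met-2* and *set-25*. All 6 genes had a lower level in the triple mutant than in the double mutant (*mes-6* not after rescaling to the intrinsic class), and none passed 2-fold (3.9% of tested models did). The ratio of the triple mutant to *met-2 set-25* was 0.639 for *met-1* (interval 0.550 to 0.742), 0.739 for *mes-3* (0.594 to 0.918), 0.784 for *mes-2* (0.644 to 0.953) and 0.818 for *set-2* (0.693 to 0.967). For *mes-4* it was 0.822, with an interval of 0.676 to 1.00 that just held 1, and for *mes-6* 0.899. The 4 of 6 genes lower beyond the interval stand beside 24.1% of the 3888 models with at least 100 reads in both libraries, of which 9.59% were higher. That count of genes was 5 with exon in place of coding length and 3 after rescaling to all measured models. No share of all models was counted for these settings.

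For *met-1* the difference was past 1.5-fold (log2 ratio -0.63), as were 6.76% of tested models in this direction. The median log2 ratio was -0.31 for the 6 genes and -0.08 for all tested models. It was -0.16 after rescaling to the intrinsic class, whose median was -0.15, and under that rescaling *mes-6* moved to 0.0019 and *met-1* (-0.47) alone was beyond its interval. How many of all models were beyond the interval after that rescaling was not counted. The summed intestine markers were at 3574 RPKM in the triple mutant and 2592 in the double mutant, with 4 of 4 markers higher. The 2 matched hypodermis markers, *dpy-7* and *rol-6*, were both past 2-fold higher, with sums of 20.01 RPKM in the triple mutant and 7.11 in the double mutant. The muscle markers summed to 730 RPKM in the triple mutant and 579 in the double mutant, with 2 of 3 higher beyond the interval. Their part was not tested.

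The loss of *met-2* and *set-25* in the absence of *set-32* left these genes close to their levels in *set-32* alone. None of the 6 ratios of the triple mutant to *set-32* passed 2-fold, as 5.33% of tested models did. *mes-4* was higher in the triple mutant (ratio 1.26, interval 1.01 to 1.57), which it no longer was beyond its interval after rescaling to the intrinsic class. The other 5 ratios lay between 0.953 (*mes-3*) and 1.06 (*mes-6*), each with 1 in its interval, and *set-2* took the other sign after that rescaling. Of the 3881 models with at least 100 reads in both libraries, 14.3% were higher beyond the interval and 10.8% lower. Markers differed more: the major sperm protein genes summed to 1447 RPKM in the triple mutant and 2903 in *set-32*, with 15 of 30 past 2-fold lower. The hypodermis markers summed to 20.01 RPKM in the triple mutant and 10.97 in *set-32*, and 3 of 3 muscle markers were higher beyond the interval. Their part in these values was not tested.

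The 5 libraries were then compared in all 10 pairs, over the 6 genes together. The pair *hrde-1* and *met-2 set-25* was the closest: the mean absolute difference in log2(RPKM + 1) was 0.06 over the 6 genes, the largest for a single gene was 0.10, and no interval excluded 1. Over all tested models the same pair differed by 0.38. The tested models reach down to 5 RPKM, at which 1 kilobase had 9.09 reads in *hrde-1* and 10.4 in *met-2 set-25*. Counting error therefore adds more to the values over all tested models than to those of the 6 genes, and the 2 are not measured at like depth. The next pair was the triple mutant and *set-32*, with 0.09 over the 6 genes and 0.32 over all tested models. By contrast *hrde-1* and *set-32* differed by 0.42, with all 6 genes higher in *hrde-1* and 4 beyond the interval. *met-2 set-25* and *set-32* differed by 0.41, with all 6 genes higher in the double mutant and 5 beyond the interval. Over all tested models these 2 pairs differed by 0.44 and 0.40, about as much as over the 6 genes. The intrinsic class was also higher than in *set-32*, with median log2 ratios of 0.24 in *hrde-1* and 0.20 in *met-2 set-25*. For the oocyte class these medians were 0.32 and 0.26. For these pairs the share of all models beyond the interval, or higher, was not counted, so the counts of genes have no background. The 2 closest pairs were chosen after their values were seen and are given with no test.

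**Figure D3:**
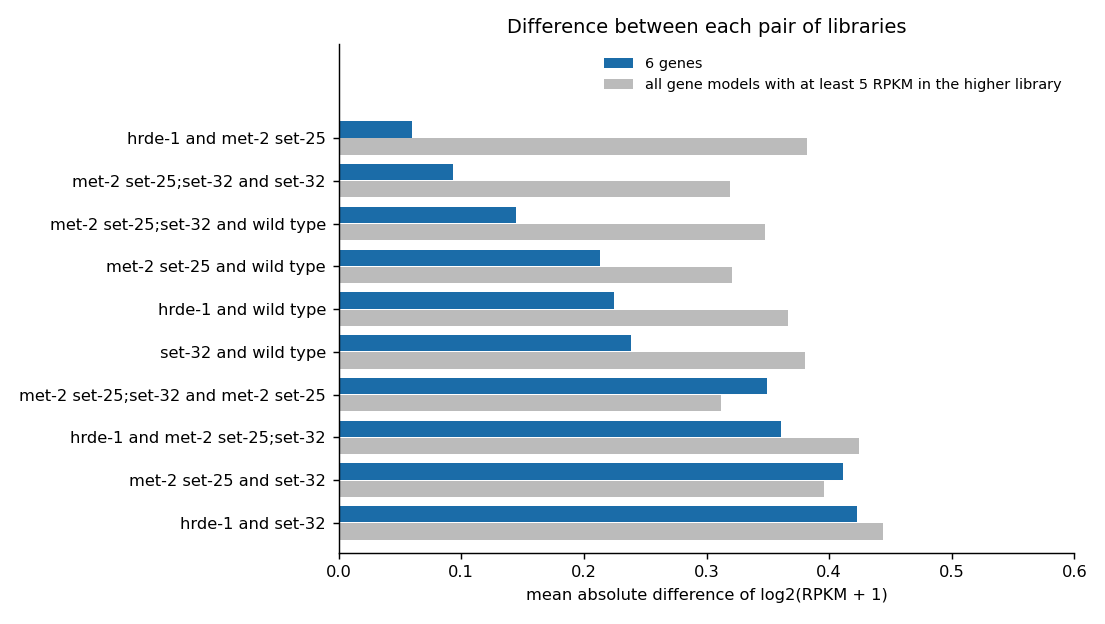
Mean absolute difference of log2(RPKM + 1) between the 2 libraries of each of the 10 pairs, for the 6 genes (blue) and for all tested gene models (grey). The tested models include many with fewer reads than the 6 genes, so counting error adds more to the grey bars. The grey bars are of similar length, from 0.31 to 0.44, while the blue bars extend from 0.06 for *hrde-1* and *met-2 set-25* to 0.42 for *hrde-1* and *set-32*.

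Sorted by the *set-32* allele, the libraries gave a pattern that was also noticed only after the values were seen. In *mes-6*, *mes-4*, *met-1* and *set-2*, both *set-32* mutant libraries (*set-32* and the triple mutant) were below all 3 libraries with an intact *set-32* gene. This held for 21.6% of the 10745 models with at least 5 RPKM in some library, for 41.7% of the 753 intrinsic-class models and for 53.1% of the 684 oocyte-class models among them. The reverse order held for none of the 6 genes and for 12.5% of models. After rescaling to the intrinsic class the pattern remained in *mes-4* and *met-1* only, and in 5.89% of models.

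The mean of the 2 *set-32* mutant libraries over the mean of the other 3 was 0.675 for *met-1* (23.7 and 35.2 RPKM) and 0.721 for *mes-4* (25.6 and 35.5 RPKM). It lay between 0.821 and 0.879 for the other 4 genes. For *mes-2* and *mes-3* the 2 sets of libraries overlapped, because wild type was at 32.1 and 26.3 RPKM, below the *set-32* mutant libraries. Set only against *met-2 set-25* and *hrde-1*, both *set-32* mutant libraries were lower in all 6 genes, as they were in 29% of all models, 50.1% of intrinsic-class models and 60.2% of oocyte-class models. After rescaling to the intrinsic class this held for *mes-3*, *mes-4*, *met-1* and *set-2* and for 10.5% of models. The libraries are of different genotypes and are not replicates of a *set-32* group.

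Likeness of pattern was measured as the root mean square distance between profiles of log2(RPKM + 1), each centred on its mean over the 5 libraries, among 7903 models whose mean was 10 RPKM or more. Among the members, *mes-6* and *set-2* were the closest pair (distance 0.048) and *mes-2* and *mes-3*, which encode subunits of 1 complex, the next (0.080). Among the members *mes-4* was nearest to *met-1* (0.139), and 10.7% of models were closer to *mes-4*. The closest other genes were Y57A10A.27 (0.021) and F27D4.8 (0.025) to *mes-2*, *lmtr-3* (0.016) and *guk-1* (0.026) to *mes-3*, and Y82E9BR.19 (0.011) and *unc-61* (0.017) to *mes-6*. They were *mut-16* (0.018) and *gla-3* (0.024) to *mes-4*, Y57A10A.31 (0.033) and *thk-1* (0.041) to *met-1*, and T01G9.2 (0.0093) and *hxk-1* (0.0099) to *set-2*. With 5 points and this many models, near matches can arise by number alone, and the distances are a description.

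Genes that work with or against the same marks, other SET-domain genes and genes of H3K9 methylation were taken from 5 lists of 51 genes, all matched in the table. Among 9 partners in H3K4 methylation, which include the COMPASS subunits *ash-2*, *wdr-5.1*, *rbbp-5* and *dpy-30*, none passed 2-fold in any mutant. Their median log2 ratios were -0.12 in *set-32*, 0.01 in *met-2 set-25*, -0.12 in *met-2 set-25;set-32* and 0.15 in *hrde-1*. Rescaling to the intrinsic class removes its medians of -0.22 and -0.19 in *set-32* and the triple mutant and so turns both negative medians of the list positive. The largest single values were 0.39 for *pis-1* in *hrde-1* and -0.31 for *rbbp-5* in the triple mutant.

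Of the 7 demethylases for H3K4 and H3K36, none passed 2-fold. *jmjd-5*, an H3K36 demethylase gene, had 15.98 RPKM in *set-32* and 27.1 in wild type, a ratio of 0.590 (interval 0.426 to 0.811, log2 ratio -0.73), and *jmjd-2*, an H3K9 and H3K36 demethylase gene, had a log2 ratio of 0.46 in *hrde-1*. The demethylase medians were -0.20 in *set-32*, 0.10 in *met-2 set-25*, -0.21 in *met-2 set-25;set-32* and 0.27 in *hrde-1*. Those of *set-32* and the triple mutant were close to the intrinsic-class medians of -0.22 and -0.19, so that after rescaling to that class they are near 0.

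Among the 10 genes listed as other SET-domain genes or as readers of H3K4 and H3K36 methylation, none passed 2-fold either. *set-30* had the largest value, 14.5 RPKM in the triple mutant and 7.78 in wild type (log2 ratio 0.82), followed by *set-18*, at 5.11 RPKM in *hrde-1* and 8.89 in wild type (log2 ratio -0.69). The medians of this list lay between -0.14 in the triple mutant and 0.01 in *met-2 set-25*, and the negative ones in *set-32* and the triple mutant turn positive under the same rescaling.

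Of the 13 Polycomb-like and H3K27 demethylase genes, 9 or 10 were expressed highly enough to be tested in each comparison and none passed 2-fold. The largest values were -0.43 for *rba-1* and -0.38 for *mig-32*, a PRC1-like gene, both in the triple mutant. The medians of the list were -0.20 in *set-32*, -0.02 in *met-2 set-25*, -0.15 in *met-2 set-25;set-32* and 0.15 in *hrde-1*, and here too those of *set-32* and the triple mutant turn positive after rescaling to the intrinsic class.

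The list of 12 H3K9 methyltransferase and heterochromatin reader genes was the exception, and there the genes past 2-fold were those mutated in the strain: *met-2* (log2 ratio -1.83 in the double and -2.21 in the triple mutant) and *set-32* (-1.02 in the triple mutant). *set-25*, at 10.3 RPKM in *met-2 set-25*, 8.64 in *met-2 set-25;set-32* and 17.5 in wild type, had log2 ratios of -0.71 and -0.94 with the pseudocount, within 2-fold, although its plain ratio in the triple mutant was 0.494. The medians of this list were -0.10 in *set-32*, 0.04 in *met-2 set-25*, -0.44 in *met-2 set-25;set-32* and 0.21 in *hrde-1*, of which that of *set-32* turns positive after the rescaling. They are over the 10 of 12 genes tested, which include *met-2*, *set-25* and *set-32* themselves. The median of the triple mutant thus rests in part on the genes mutated in that strain, and it was not computed without them.

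**Figure D4:**
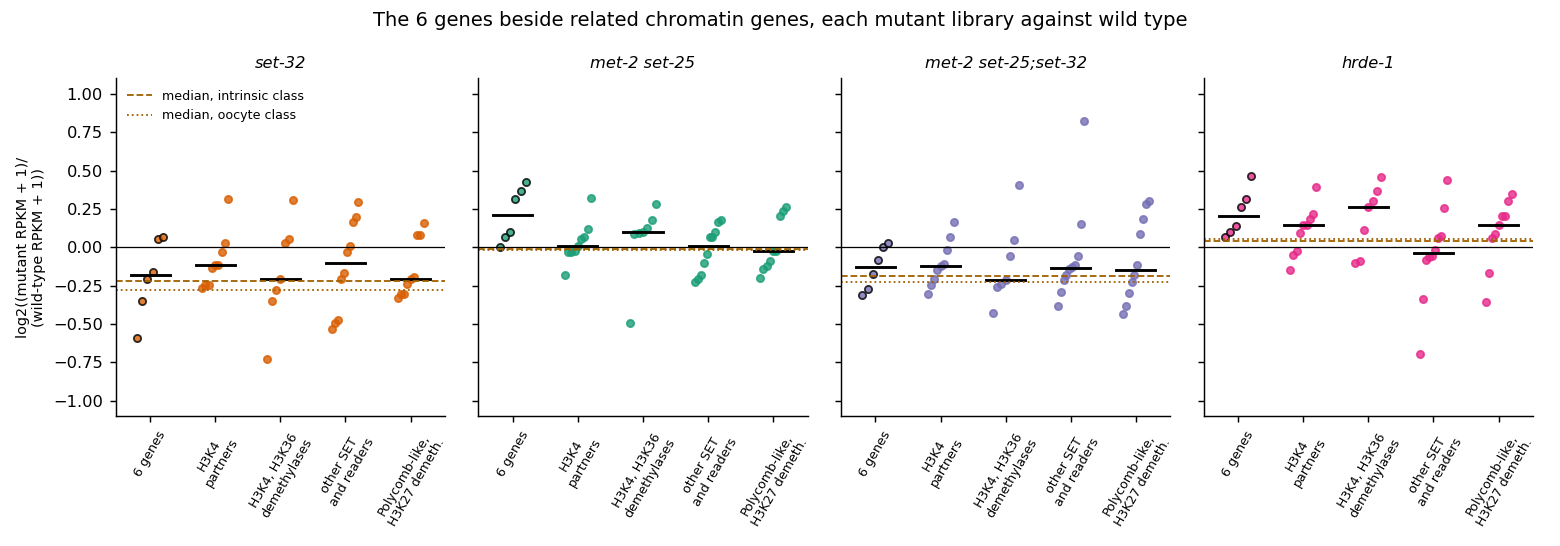
log2((mutant RPKM + 1)/(wild-type RPKM + 1)) of the 6 genes (outlined) and of the tested genes of 4 related lists, 1 panel per mutant; points are genes, black bars are list medians, and dashed and dotted lines are the medians of the intrinsic and oocyte classes. No point reaches 1 or -1, and in *set-32* and the triple mutant the median of the 6 genes and those of all 4 lists lie below 0, most of which turn positive after rescaling to the intrinsic class.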

How the data were processed

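The authors isolated poly(A) RNA from young adult animals, sequenced it in 50-nt single-end runs and aligned the reads with Bowtie 0.12.7 to genome release WS190. They kept perfect alignments and divided reads with several alignments evenly. The deposited values are RPKM per gene model, with 2 decimals, from 1 table of 20911 models. The strand counted and the gene lengths are not given in the sources used here. Columns were matched to samples through the library names of the study.

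Sequence names linked 97.1% of the models to a gene of Ensembl release 115 (WBcel235). Its lengths differ in part from those of WS190. Depth was estimated from the steps between low values, of which 50.5% to 54.6% were whole reads within 0.1 of a read, so read numbers are approximate. The code was tested on simulated data. Ratios used a pseudocount of 1 RPKM, a 2-fold rule and a minimum of 5 RPKM in the higher library. Python 3.11.15, numpy 2.4.6, pandas 2.3.3 and scipy 1.17.1 were used. No statistical test was made, because each genotype had 1 library.

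The named genes are the 6 members, list genes past 2-fold, up to 2 per list with the largest absolute log2 ratio to wild type (mean of at least 5 RPKM), the 2 most alike genes per member, and overlapping neighbours. The members and lists were chosen with earlier results of these data known. Alternatives were pseudocounts of 0.1 and 5, a 1.5-fold rule, no minimum or 20 RPKM, 2 rescalings, the other 4 libraries as reference, and exon in place of coding length.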

Additional observations from a re-analysis of the deposited data

Results flagged for a closer look

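For *mes-2* and *mes-3* the loss of *set-32* gave values of opposite sign in the 2 genetic backgrounds. In *mes-2* the log2 ratio was -0.34 for the triple mutant over *met-2 set-25* and 0.05 for *set-32* over wild type, a difference of -0.40. In *mes-3* these log2 ratios were -0.42 and 0.07, a difference of -0.49. Read the other way, the loss of *met-2* and *set-25* gave -0.03 in *mes-2* and -0.07 in *mes-3* without *set-32*, and 0.37 and 0.43 with it. By construction the differences are the same -0.40 and -0.49. Each of the 4 genotypes had 1 library, so the difference was not tested, and the intervals of the ratios near 0 held 1. Set against the median of the 4 other libraries, *set-32* was at -0.10 for *mes-2* and -0.16 for *mes-3*, the same sign as in the other background. In *mes-6*, *mes-4*, *met-1* and *set-2* the loss of *set-32* had the same sign in both backgrounds. The difference between backgrounds was still 0.32 in *mes-4* and -0.27 in *met-1*, against 0.01 in *mes-6* and -0.07 in *set-2*. After rescaling to the intrinsic class *set-2* was at -0.13 for the triple mutant over *met-2 set-25* and 0.013 for *set-32* over wild type. For *mes-6* these values were 0.0019 and 0.059. The share of all models with opposite signs was not counted.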

How the results depend on the processing

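No paired analysis was possible because each genotype had 1 library, and for the same reason no library could be left out of a group. Of 168 values of single members under other pseudocounts, rescalings or the median of the other 4 libraries as reference, all lay within their counting interval and 11 had the other sign. The intervals are wide beside such shifts, so lying within them is a weak check, and the counts below did change. Rescaling to the intrinsic class moved the median log2 ratio of the 6 genes to 0.036 in *set-32* over wild type, 0.056 in the triple mutant over wild type and -0.16 in the triple over the double mutant. The same rescaling, chosen for the intervals after seeing the data, left 1 gene beyond its interval in *set-32* over wild type, 0 in the triple mutant over wild type, 1 in the triple over the double mutant and 0 in the triple mutant over *set-32*. With exon length that count was 5 in the triple over the double mutant, and 3 after rescaling to all measured models, against 4 as reported. The share of all models beyond the interval was not counted under these settings, so these counts have no background. Rescaling to the intrinsic class left 2 of 4 members with both *set-32* mutant libraries below the other 3, and 4 of 6 with both below *met-2 set-25* and *hrde-1*. A 1.5-fold rule gave 1 member in *set-32* over wild type and 1 in the triple over the double mutant. The counts of all models past 2-fold follow for *set-32*, *met-2 set-25*, the triple mutant and *hrde-1* over wild type, then the triple mutant over the double mutant and over *set-32*. They were 639, 496, 552, 619, 399 and 545 as reported, 1584, 1475, 1435, 1709, 1263 and 1451 with no minimum, 230, 110, 129, 192, 99 and 170 with at least 20 RPKM, and 264, 161, 185, 268, 130 and 205 with a pseudocount of 5. Fewer low models enter under the stricter settings by construction.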

Other observations

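The X chromosomes, whose repression in germ cells depends on the MES proteins, were looked at as a group. The median log2 ratio of 1855 measured X-linked models was 0.12 in *set-32*, 0.12 in *met-2 set-25*, 0.10 in *met-2 set-25;set-32* and -0.02 in *hrde-1*, each over wild type. Over all 13613 measured models it was -0.02, 0.06, -0.00 and -0.00. The same whole-animal RNA holds X-linked transcripts of somatic tissues, and their share was not tested.

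Within the H3K27 methyltransferase complex, the summed level of *mes-2*, *mes-3* and *mes-6* was 97.5 RPKM in *set-32*, 120 in *met-2 set-25*, 97.6 in the triple mutant, 121 in *hrde-1* and 99.3 in wild type. The ratio of *mes-6* to *mes-3* was 1.32, 1.198, 1.46, 1.23 and 1.55 in the same order, and *mes-2* over *mes-3* stayed between 1.06 and 1.24.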
